A study of Caenorhabditis elegans with 40 samples.

Results

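The clustered HSF-1 summits away from promoters are positions of highest ChIP-seq signal that lie more than 1000 bp from the 5′ end of every annotated protein-coding transcript and have another summit of the same list within 2000 bp. By this rule, which uses positions only, 145 of 441 summits were members after heat shock and 115 of 500 were members at 20 °C, or 260 of 941 list entries in all. In each list 350 summits had a counterpart within 100 bp in the other, so the entries are not 941 separate sites. The other summits away from promoters, called isolated here, numbered 167 after heat shock and 195 at 20 °C, and 129 and 190 summits lay within 1000 bp of a 5′ end.

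HSF-1, the heat shock factor of Caenorhabditis elegans, is a transcription factor that binds DNA as a trimer at heat shock elements, which are inverted repeats of a short motif. It is best known for inducing chaperone genes from their promoters under heat stress, and it also acts in development and reproduction without stress. In this worm, heat shock elements are also carried by some copies of Helitron transposons, and the arms of the autosomes are richer in repeats and in fast-changing gene families, such as chemoreceptors, than the chromosome centres. Repeats and DNA sequence were not analysed here, and reads from near-identical copies of a sequence can be shared between their positions.

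The animals were young adults of the strain JTL611, with TIR1 driven by the eft-3 promoter in the soma, or of the strain JTL621, with TIR1 in the germline under the sun-1 promoter. In both strains HSF-1 carried a degron and GFP (hsf-1::aid::gfp), and both carried unc-119(ed3) with a Cbr-unc-119(+) transgene. TIR1 is a plant F-box protein that, with auxin, removes degron-tagged proteins. Animals were kept for 2 h on auxin or ethanol plates and then either heat shocked at 34 °C for 30 min or collected directly at 20 °C, fixed in 2% formaldehyde and precipitated with an antibody to GFP. Of the 40 libraries in the labels, 16 held HSF-1 ChIP, with 2 for each strain, plate and temperature, and 8 of the 16 came from ethanol controls. Nothing in the labels ties the libraries of a group to separate cultures. The summits were those the authors listed as common to the ethanol controls, with peak names that carry the strain JTL611. No list held values per library. The depth of the libraries and their spread are therefore unknown. The tests below treat summits as units and their p-values cover the sampling of summits only. Summits of 1 cluster share a place, so values for 1 summit per cluster are given where they change a call. The sources used here do not give the genome build of the lists, so positions are printed as the lists give them, and genes come from the Ensembl release 115 annotation of WBcel235.

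The clustered summits formed 60 groups after heat shock and 44 at 20 °C, a cluster being a chain of summits with no step over 2000 bp. Pairs made up 42 of the 60 clusters after heat shock and 31 of the 44 at 20 °C. Clusters of 3 or more summits numbered 18 and 13, and held 71 of the 145 members after heat shock and 57 of the 115 at 20 °C. A summit within 1000 bp of a 5′ end belonged to 12 of the 60 clusters after heat shock and to 4 of the 44 at 20 °C. It was the nearest neighbour of 12 and 4 members.

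Neighbouring summits of a cluster were mostly 600 bp or more apart. After heat shock the 99 gaps had a median of 887 bp (quartiles 655.5 and 1239.5, range 350 to 1802). At 20 °C the 75 gaps had a median of 854 bp (quartiles 667.5 and 1108, range 408 to 1901). Gaps of 600 to 1000 bp made up 43 of the 99 after heat shock and 37 of the 75 at 20 °C. Those of 1000 bp or more numbered 40 and 26, and 16 and 12 were shorter than 600 bp. The smallest gap between any summits of the lists was 264 bp after heat shock and 265 bp at 20 °C. Sonicated fragments ran from 200 to 600 bp per the labels, and the part of fragment length or of the peak caller in the smallest gaps was not tested. The median cluster spanned 1176.5 bp after heat shock and 1091.5 bp at 20 °C.

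**Figure D1:**
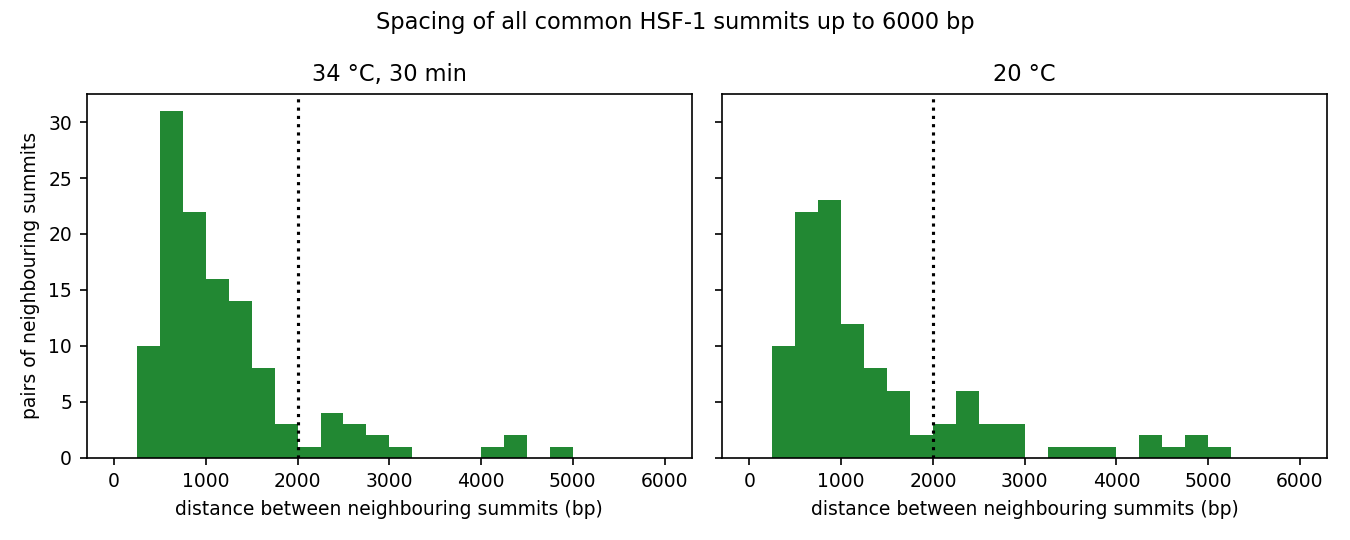
Number of pairs of neighbouring summits on 1 chromosome (vertical axis) by the distance between them in bp (horizontal axis, up to 6000 bp), over all common summits after heat shock (left) and at 20 °C (right); the dotted line marks the 2000 bp of the member rule. Pairs up to 1000 bp apart numbered 64 after heat shock and 55 at 20 °C, those from 1000 to 2000 bp 40 and 29, and those from 2000 to 3000 bp 10 and 14.

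Beyond the 2000 bp of the rule, 10 pairs of neighbouring summits after heat shock and 14 at 20 °C were up to 3000 bp apart. From 1000 to 2000 bp there were 40 and 29. The member farthest from its neighbour was 1802 bp away after heat shock and 1901 bp at 20 °C, and the isolated summit nearest to another was 2184 and 2087 bp away. The member nearest to a 5′ end was 1052 bp from it after heat shock and 1030 bp at 20 °C, and among summits with a neighbour that counted as promoter summits, the farthest was 971 and 983 bp from its 5′ end.

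The cluster with the most summits lay on chromosome V, upstream of srsx-7, which encodes a predicted chemoreceptor of the serpentine receptor class. After heat shock it held 10 summits from 7917686 to 7924075, between 8097 and 1708 bp upstream of the 5′ end. At 20 °C it held 11 summits from 7917685 to 7924683. The additional summit at 20 °C was the one nearest to the gene, 1100 bp upstream. Gaps ran from 419 to 1067 bp after heat shock and from 413 to 1092 bp at 20 °C. Peak scores ran from 48645 to 213386 after heat shock and from 13705 to 70728 at 20 °C, so that every summit of the array was above the upper quartile of its list (10892 after heat shock and 1986 at 20 °C). The sources used here do not say on what scale the authors' peak score runs, and scores are therefore compared only within a temperature.

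Every summit of the srsx-7 array was of the shared class at both temperatures. A summit is called shared, germline or soma when it stands in the authors' sheet of summits with a region of lower HSF-1 signal on depletion in both tissues, in the germline or in the soma. Whole animals were used, so fewer cells with bound HSF-1 and less binding per cell cannot be told apart. The array lay in 1 germline depletion region of 8346 bp after heat shock and of 8228 bp at 20 °C, and in 1 soma region of 8351 and 8121 bp. Its summits thus share their depletion calls and are 1 observation of the class, not 10 or 11.

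The next clusters by number of summits were on the right arm of chromosome IV. An array of 8 summits lay upstream of Y57G11A.4, from 14476732 to 14480778 after heat shock and from 14476730 to 14480786 at 20 °C, with gaps of 378 to 721 bp and 408 to 707 bp. The summit nearest to the gene, 1506 bp from its 5′ end after heat shock and 1498 bp at 20 °C, had the highest score of the array at both temperatures (16235 and 5501). All 8 summits were of the shared class after heat shock. At 20 °C 6 were shared and 2 were of the germline class, with scores of 656 and 401, and these stood next to each other within the array.

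A row of 6 summits lay in intronic sequence of srt-50, another predicted chemoreceptor gene, from 15076803 to 15081563 after heat shock and from 15076831 to 15081562 at 20 °C. All 6 were of the shared class after heat shock, with scores of 543 to 5909, and all 6 were of the germline class at 20 °C, with scores of 137 to 2140. Each had its own soma region after heat shock, where 6 regions covered 6 summits. The 6 positions moved by less than 30 bp between the lists. The germline class at 20 °C says that no soma region was listed there, not that HSF-1 was absent from the soma.

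Of the clusters of 4 summits, the one with the highest summed score at both temperatures lay in intronic sequence of oat-1, a gene of the organic anion transporter family, from 8467018 to 8470407 on chromosome IV after heat shock. Its scores in order along the chromosome were 2976, 39160, 57895 and 5719 after heat shock, and 513, 11778, 24109 and 874 at 20 °C. All 4 summits were shared at both temperatures, and the inner pair was stronger than the outer pair in each list. Upstream of cec-8, which encodes a chromodomain protein, on the left end of chromosome III, 4 summits of the shared class from 425121 to 427310 had scores of 30926, 54906, 5902 and 4952 after heat shock. The leftmost of them had no counterpart at 20 °C, where the others were 1 shared summit with a score of 16624 and 2 germline summits with scores of 367 and 648. Upstream of C39F7.1 on chromosome V, 4 summits were all shared after heat shock (2296, 13855, 3354 and 22012). In the 20 °C list the leftmost was of the germline class (327) and the other 3 were shared (4204, 787 and 4682).

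**Figure D2:**
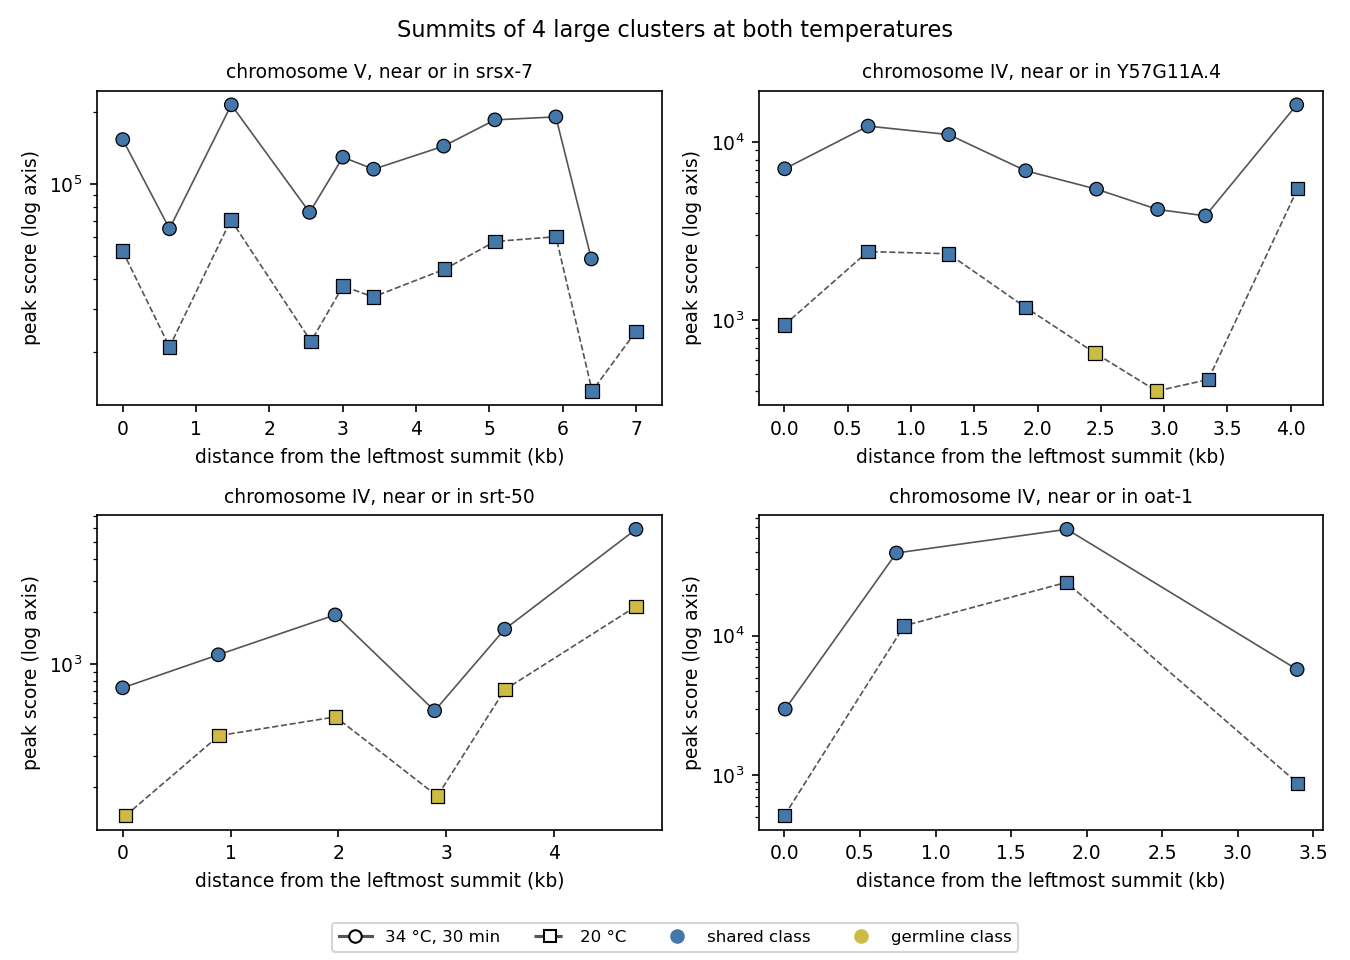
Peak score of the authors (vertical axis, log scale) against distance in kb (horizontal axis) for the clusters near srsx-7, Y57G11A.4, srt-50 and oat-1. Distance runs from the leftmost summit of the cluster in either list. Circles and solid lines are heat shock, squares and dashed lines 20 °C, and the fill gives the class. The strongest summit of each of the 4 clusters was the same at both temperatures, and the 6 srt-50 summits were shared after heat shock and of the germline class at 20 °C.

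Several of the strongest sites of the lists were members because a far weaker summit stood beside them. The summit with the highest score of each list lay in an intron of tir-1 on chromosome III, at 3897317 after heat shock (322070) and at 3897311 at 20 °C (234251). TIR-1 is the worm SARM protein, an adaptor in innate immunity. The neighbour of the tir-1 summit, 1232 bp to the left after heat shock, had a score of 4129 after heat shock and 1211 at 20 °C. The summit at 15321119 on chromosome V, 1863 bp upstream of the nuclear hormone receptor gene nhr-247, had a score of 316157 after heat shock (rank 2 of its list) and of 108104 at 20 °C (rank 4). It was clustered with a promoter summit of nhr-247, which had a score of 3101 after heat shock and 196 at 20 °C, where that summit was of the germline class.

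On the left end of chromosome X, the summit at 2058109 near Y102A11A.1 had a score of 286374 after heat shock, with a neighbour of 14336, and 86202 at 20 °C, with a neighbour of 2572. The summit at 1375247, near the F-box gene fbxa-190, had 211989 after heat shock, with a neighbour of 2645, and 96826 at 20 °C, with a neighbour of 640. In these 4 clusters the strong summit and its companion were both of the shared class at both temperatures, except the nhr-247 companion at 20 °C. The strongest summit was above the upper quartile of its list in 29 of 60 clusters after heat shock, and in 14 of these the weakest summit was below the list's median. The same counts at 20 °C were 30 of 44 and 15.

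Over all members the median peak score was 4722 after heat shock, against 3164 for isolated summits and 612 for promoter summits. The 20 °C medians were 1171, 575 and 238 in the same order. Scores at or above the median of the whole list were held by 94 of 145 clustered summits after heat shock (64.8%), against 50.9% of isolated and 32.6% of promoter summits, and by 85 of 115 at 20 °C (73.9%), against 52.3% and 33.2%. Clustered summits took 12 of the 20 highest scores after heat shock and 10 of the 20 at 20 °C, of which the srsx-7 array alone supplied 7 and 5. The scores of members ran from 82.3 to 322070 after heat shock and from 43.5 to 234251 at 20 °C. Summits on both sides of the list's median stood together in 32 of 60 clusters after heat shock and in 23 of 44 at 20 °C. Every summit was below it in 8 and 3 clusters.

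**Figure D3:**
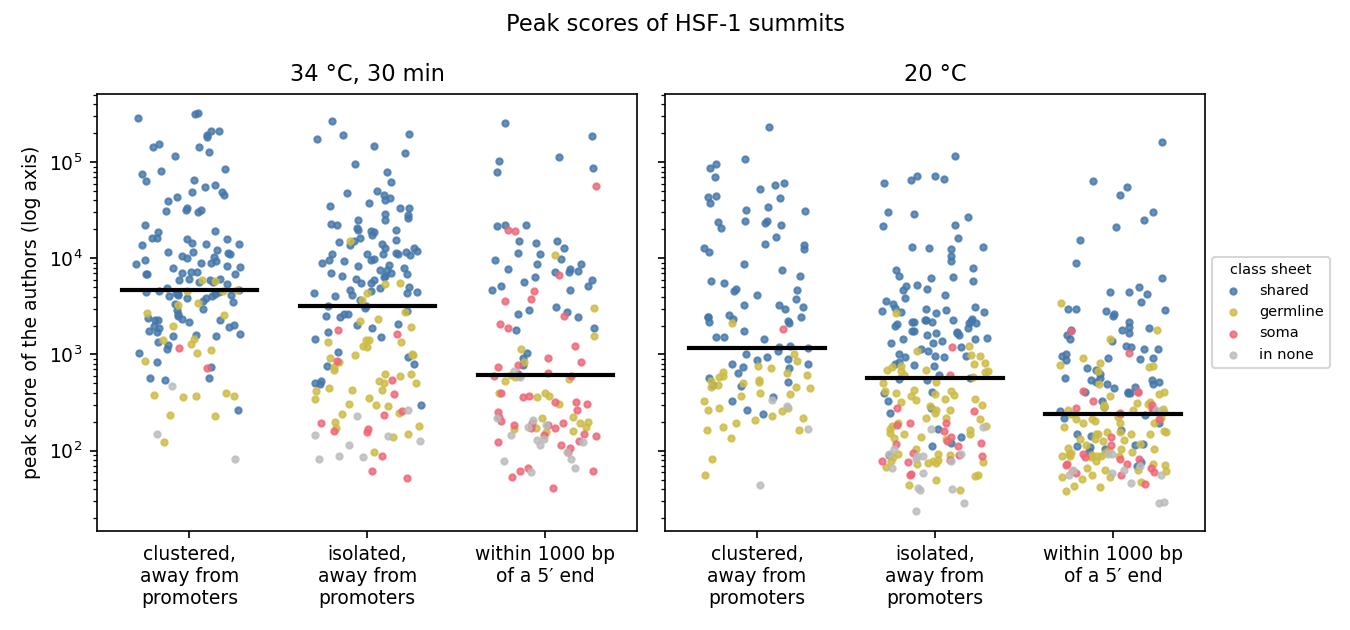
Peak score of the authors (vertical axis, log scale) for each summit after heat shock (left) and at 20 °C (right), by place (horizontal axis: clustered, isolated, within 1000 bp of a 5′ end); each point is a summit, its colour the class sheet, and the black lines are medians. The median line of clustered summits stands at 4722 after heat shock and 1171 at 20 °C, above those of the isolated and promoter summits.

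The class sheets show in which tissue depletion lowered HSF-1 signal at the summits. After heat shock 116 of 145 clustered summits were of the shared class (80%, exact 95% confidence interval 72.6 to 86.2), against 99 of 167 isolated summits (59.3%, 51.4 to 66.8), 42 of 129 promoter summits and 58.3% of all common summits. The share was 20.7 percentage points higher in clustered than in isolated summits (Fisher's exact test, two-sided, Benjamini-Hochberg adjusted over 12 tests, p = 0.0005). At 20 °C 74 of 115 clustered summits were shared (64.3%, 54.9 to 73.1), against 92 of 195 isolated summits (47.2%, 40.0 to 54.4), 76 of 190 promoter summits and 48.4% of all common summits. Clustered summits were thus 17.2 points higher (adjusted p = 0.0137, Fisher's exact test). With 1 summit per cluster, the leftmost, the difference was 22.4 points after heat shock (adjusted p = 0.00955) and 21.0 points at 20 °C (adjusted p = 0.0452, Fisher's exact test). The 20 °C call was lost without the srsx-7 array (13.4 points, adjusted p = 0.0586, Fisher's exact test) and with a window of 1000 bp (14.8 points, adjusted p = 0.0634) or 5000 bp (10.5 points, adjusted p = 0.164).

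The shared class went with the score. In the upper part of each list, from its median score on, 87 of 94 clustered and 80 of 85 isolated summits were shared after heat shock, a difference of -1.56 points. At 20 °C 69 of 85 and 82 of 102 were, 0.784 points apart (adjusted p = 1 at both temperatures, Fisher's exact test). Below the median, 29 of 51 clustered and 19 of 82 isolated summits were shared after heat shock, 33.7 points apart (adjusted p = 0.001, Fisher's exact test), and 5 of 30 and 10 of 93 were at 20 °C, 5.91 points apart (adjusted p = 0.625). Of the 29 weak shared members after heat shock, 8 lay in the germline region of a stronger summit of the same cluster and 3 in its soma region. The part of such shared regions in the difference was not tested. The split below the median, used again below for the soma class, counterparts and X, was chosen after the data were seen. Its tests count each summit of a cluster, and the 29 include several summits of the srt-50 row.

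Soma-class summits were few in clusters. They were 2 of 145 clustered summits after heat shock (1.38%), against 14 of 167 isolated (8.38%), 48 of 129 promoter summits and 14.5% of all common summits. The difference, clustered minus isolated, was -7.0 points (adjusted p = 0.0192, Fisher's exact test). At 20 °C they were 1 of 115 (0.87%), against 21 of 195 (10.8%), 25 of 190 promoter summits and 9.4% of all common summits (difference -9.90 points, adjusted p = 0.00179 by Fisher's exact test). Counted once per cluster, both differences missed the threshold of 0.05, at -6.72 points after heat shock (adjusted p = 0.187 for the leftmost summit, Fisher's exact test) and -8.50 points at 20 °C (adjusted p = 0.152). From the list's median score on, 0 of 94 clustered and 0 of 85 isolated summits were of the soma class after heat shock, and 1 of 85 and 2 of 102 at 20 °C. Below the median 2 of 51 and 14 of 82 were after heat shock (-13.2 points, adjusted p = 0.0667, Fisher's exact test), and 0 of 30 and 19 of 93 at 20 °C (-20.4 points, adjusted p = 0.0145).

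The soma-class members all lay in 1 cluster on the right end of chromosome X, 5913 and 7085 bp downstream of the 5′ end of C30E1.4. After heat shock its summits, at 16929849 and 16931021, had scores of 1162 and 730, and the second lay inside the noncoding RNA gene C30E1.9. At 20 °C the summit at 16929863 was of the soma class with a score of 1829, and that at 16931020, with a score of 168, stood in no class sheet. This cluster had no germline region at either temperature.

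The germline class held 24 of 145 clustered summits after heat shock (16.6%), against 45 of 167 isolated (26.9%), 23 of 129 promoter summits and 20.9% of all common summits (difference -10.4 points, adjusted p = 0.0502 by Fisher's exact test). At 20 °C it held 36 of 115 (31.3%), against 66 of 195 (33.8%), 77 of 190 promoter summits and 35.8% of all common summits (difference -2.54 points, adjusted p = 0.708 by Fisher's exact test). With the summit as the unit, the heat shock difference passed the threshold under some other settings, such as 5′ ends over 500 bp or 2000 bp away. Under the rule as given, neither difference passed it with the summit as the unit. By the strongest summit of each cluster both did, at -15.3 points after heat shock (adjusted p = 0.0383, Fisher's exact test) and -22.5 points at 20 °C (adjusted p = 0.00928). By the leftmost neither did, at -11.9 points (adjusted p = 0.152, Fisher's exact test) and -8.85 points (adjusted p = 0.384). The strongest summit is picked by score, whereas isolated summits were not picked. After heat shock 7 of 94 members from the list's median score on were germline, and 17 of 51 below it. At 20 °C 15 of 85 and 21 of 30 were. The comparison by strongest summit therefore cannot tell clustering from score. No class sheet listed 3 clustered, 9 isolated and 16 promoter summits after heat shock (6.35% of all common summits), and 4, 16 and 12 at 20 °C (6.4%).

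**Figure D4:**
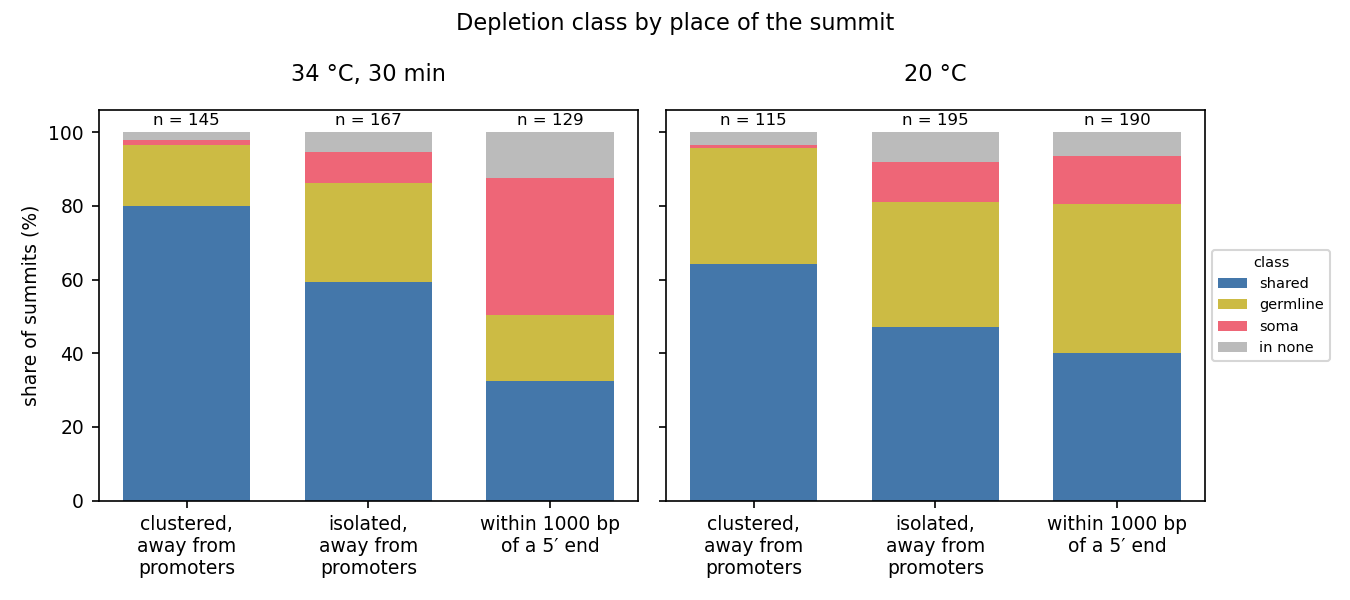
Share of summits in percent (vertical axis, from 0 to 100) in the shared, germline and soma class sheets or in none, after heat shock (left) and at 20 °C (right), for clustered, isolated and promoter summits (horizontal axis, with the number of summits above each bar). The shared share of clustered summits was 80% after heat shock and 64.3% at 20 °C, and the soma share 1.38% and 0.87%.

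Within a cluster the class was the same in most clusters after heat shock, but not in most at 20 °C. Most members were of the shared class, and agreement within clusters beyond that was not tested. After heat shock 42 of 60 clusters had summits of a single kind, with 36 wholly shared, 5 wholly germline and 1 wholly soma. At 20 °C 21 of 44 did, with 16 wholly shared, 4 wholly germline and 1 in no sheet. Shared and germline summits stood together in 15 clusters after heat shock and in 21 at 20 °C, and the strongest summit of these was shared in 14 of the 15 and in 20 of the 21. Summits of a cluster also shared depletion regions. A germline region covered 2 or more summits in 26 of 60 clusters after heat shock and in 19 of 44 at 20 °C. The 140 members with a germline region after heat shock drew on 97 distinct regions and the 110 at 20 °C on 72, whereas the 144 and 158 isolated summits with a germline region each had their own. A soma region covered 2 or more summits in 12 and 4 clusters.

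Among clusters with both classes after heat shock, the one with the highest summed score lay between K12B6.9 and the Argonaute gene sago-1 on chromosome V. Its summits at 6296503, 6297994 and 6299375 had scores of 14187, 4531 and 4049, with 2 shared and 1 germline, and at 20 °C all 3 were shared. On chromosome X, a strong and a weak summit near C24A3.9 had scores of 19199 and 846, and those upstream of ZK1073.2 had 15732 and 1273, with 1 shared and 1 germline summit in each pair. Around an intron of Y69H2.7 on chromosome V, 4 summits with scores of 6089, 6004, 3418 and 2686 comprised 3 of the germline class and 1 shared. In an intron of Y53F4B.25 on chromosome II, 2 members with scores of 267 and 476 stood with 2 promoter summits of Y53F4B.26, with 1 germline summit, 1 in no sheet and 2 shared in all.

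At 20 °C the mixed clusters with the highest summed scores were that of nhr-247 and that upstream of ZK1307.7 on chromosome II. The summits near ZK1307.7 had scores of 8811, 43641 and 856, the last of the germline class, and after heat shock 33685, 142807 and 10299, all shared. Upstream of fezf-1, which encodes a zinc finger transcription factor of the FEZ family, on chromosome IV, the strongest summit had a score of 41978 and was shared at 20 °C, while the other 2 were of the germline class. After heat shock all 3 were shared, with a score of 84347 for the strongest. The clusters upstream of cec-8 and Y57G11A.4 had the next highest summed scores at 20 °C.

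The clustered sites were largely the same at both temperatures. A summit within 100 bp in the other list was found for 122 of 145 clustered summits after heat shock (84.1%, exact 95% interval 77.2 to 89.7), against 127 of 167 isolated (76.0%), 101 of 129 promoter summits and 79.4% of all common summits, 8.09 points apart from isolated summits (adjusted p = 0.12, Fisher's exact test). It was found for 109 of 115 at 20 °C (94.8%, 89.0 to 98.1), against 141 of 195 isolated (72.3%), 100 of 190 promoter summits and 70% of all common summits. Here clustered summits were 22.5 points above isolated ones (adjusted p = 5.43e-06, Fisher's exact test). With the leftmost summit per cluster it was 23.1 points (adjusted p = 0.00722, Fisher's exact test), from the list's median score on it was 0.588 points (adjusted p = 1), and below the median, with 26 of 30 clustered and 42 of 93 isolated summits, it was 41.5 points (adjusted p = 0.000605). The median offset between a member and its counterpart was 5 bp at either temperature, and the largest was 52 bp after heat shock and 57 bp at 20 °C.

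Members were also clustered in the other list. Of the 122 members with a counterpart after heat shock, 108 had a clustered and 14 an isolated one. Of the 109 at 20 °C, 108 had a clustered and 1 an isolated one. In all, 41 clusters were found at both temperatures, 36 of them with the same number of summits, 4 with more after heat shock and 1, the srsx-7 array, with fewer.

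Clusters listed after heat shock and not at 20 °C were mostly sites that were a single summit at 20 °C. There were 19 such clusters, and in 16 of them exactly 1 summit had a counterpart, which was the strongest summit of the cluster in all 16. In 2 clusters 2 or more summits had one. The remaining cluster, in an intron of Y71G12B.33 on chromosome I, had scores of 9654 and 8821 and no summit within 100 bp at 20 °C. A single shared summit with a score of 2684 stood between its summits in the 20 °C list, 543 bp from the one with 9654. Of all 23 members without a counterpart after heat shock, 22 had a 20 °C summit within 2000 bp. These 23 members had a median score of 568, against 6099 for the 122 with one, and 22 of the 23 stood in clusters in which another summit had one. They comprised 10 shared and 10 germline summits and 3 in no sheet. A summit under the authors' limit at 20 °C and a site not bound at 20 °C cannot be told apart from the lists.

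In the other direction, 3 clusters stood in the 20 °C list alone. In an intron of agef-1, which encodes a guanine nucleotide exchange factor for Arf GTPases, on chromosome I, 2 shared summits had scores of 31827 and 23258, and the stronger one had a counterpart after heat shock. A pair on chromosome III, whose nearest 5′ end was that of plg-1 at 10178 bp, had scores of 43.5 and 292, stood in no class sheet and was 190834 bp or more from any summit after heat shock. A pair on chromosome V had scores of 340, inside the snRNA gene sls-1.10, and 266, with its nearest protein-coding 5′ end, that of ZK218.11, 20757 bp away. It was 84968 bp or more from any summit after heat shock. The 6 members without a counterpart at 20 °C had a median score of 316, against 1184 for the 109 with one.

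The class of the sites kept moved mainly in 1 direction. Of the clustered summits after heat shock with a counterpart that was of the germline class at 20 °C, 33 of 43 were shared after heat shock (76.7%) and 10 stayed germline. Of those with a shared counterpart, 73 of 77 were shared and 4 were of the germline class. The same counts for isolated summits were 23 of 41 (56.1%) and 68 of 82. Of all common summits, 48.4% at 20 °C and 58.3% after heat shock were shared. These are shares of whole lists and not of germline-class sites that were kept. The change of class over all common summits was not counted. Summits are counted singly here, and the srt-50 row supplied 6 of the 33. The difference between clustered and isolated summits in this change of class was not tested. The move to the shared class means that a soma region was listed after heat shock, and the sensitivity of the depletion comparisons at each temperature was not tested.

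Clustered summits lay mostly between genes, as did isolated and promoter summits. The intergenic share after heat shock was 68.3% of clustered, 56.3% of isolated and 59.7% of promoter summits. At 20 °C it was 71.3%, 59.0% and 59.5%, and these differences were not tested. Of the 145 after heat shock, 99 were intergenic, 37 lay in introns of protein-coding genes, 8 in noncoding genes or pseudogenes, 1 in an untranslated region and 0 in coding exons. Of the 115 at 20 °C the counts were 82, 27, 6, 0 and 0. The intron share was 25.5% after heat shock, against 34.7% of isolated summits and 30.4% of all common summits (difference -9.21 points, adjusted p = 0.12 by Fisher's exact test). It was 23.5% at 20 °C, against 28.7% of isolated summits and 26.2% of all common summits (difference -5.24 points, adjusted p = 0.386 by Fisher's exact test). The nearest protein-coding 5′ end was a median of 3505 bp away after heat shock and 3813 bp at 20 °C, with a maximum of 14239 and 21816 bp. It lay downstream of the summit, so that the summit was on its upstream side, for 88 of 145 and 74 of 115 members. The same held for 90 of 167 isolated and 98 of 129 promoter summits after heat shock. At 20 °C it held for 104 of 195 and 147 of 190, so the members lay between these groups.

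Introns that held whole clusters besides those of tir-1, srt-50 and oat-1 included those of cku-70, the worm Ku70 DNA repair protein gene, with summits of 31911 and 4456 after heat shock, and of C50A2.3 and Y105C5A.15. The clusters in introns of unc-82, a kinase gene needed for muscle structure, and of snt-5, a synaptotagmin gene, were listed after heat shock and were pairs of 1 member and 1 promoter summit. The nearest 5′ end was that of a gene with a chemoreceptor name for 26 of 145 clustered summits after heat shock (17.9%). The same held for 14 of 167 isolated (8.38%) and 5.43% of promoter summits. At 20 °C it was so for 24 of 115 clustered (20.9%), 13 of 195 isolated (6.67%) and 1.58% of promoter summits. This list of names was chosen after the nearest genes were seen, and no test was made. The srsx-7 and srt-50 clusters supply 16 of the 26 and 17 of the 24. The higher share of clustered summits thus rests mostly on these clusters and is not a trait of members at large.

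Clustered summits were unevenly spread over the chromosomes. After heat shock 46 of 145 lay on chromosome IV, 38 on V, 24 on X, 17 on II, 17 on III and 3 on I, against 41, 35, 17, 27, 19 and 28 of the 167 isolated summits. At 20 °C the counts were 40, 30, 21, 9, 11 and 4 of 115, against 52, 39, 17, 32, 29 and 26 of 195. Chromosome I held 2 clusters at each temperature.

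The X chromosome held 16.6% of clustered summits after heat shock, against 10.2% of isolated, 3.10% of promoter and 10.2% of all common summits (difference 6.37 points, adjusted p = 0.156 by Fisher's exact test). It held 18.3% at 20 °C, against 8.72% of isolated, 3.68% of promoter and 9% of all common summits (difference 9.54 points, adjusted p = 0.0379 by Fisher's exact test). Counted once per cluster, 12 of 60 clusters after heat shock and 10 of 44 at 20 °C were on X, and the differences were 9.82 points (Fisher's exact test, adjusted p = 0.152 with the leftmost summit) and 14.0 points (adjusted p = 0.0452). The 20 °C call on X was lost from the list's median score on (5.49 points, adjusted p = 1, Fisher's exact test), while below the median 8 of 30 clustered and 7 of 93 isolated summits were on X (19.1 points, adjusted p = 0.0291). It was also lost with either other window (5.63 points at 1000 bp and 5 points at 5000 bp) and with 5′ ends over 2000 bp away (7.33 points).

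Within chromosomes, members lay mostly towards the ends, as did isolated summits. Counted by summits, chromosome IV held most of the members' excess at the right end over the left. The end zones, 20% of a chromosome each, held 68.3% of clustered summits after heat shock, against 61.1% of isolated and 51.2% of promoter summits. At 20 °C both zones together held 65.2%, against 55.9% and 40%. The right end held 70 clustered summits and the left end 29 after heat shock, and 52 and 23 at 20 °C, whereas isolated summits were split 52 and 50, and 55 and 54. Chromosome IV alone had 30 at its right end and 2 at its left after heat shock, and 29 and 2 at 20 °C. On the other chromosomes together the right end held 40 and the left 27 after heat shock, of which chromosome II had 11 and 1, and 23 and 21 at 20 °C. Chromosome III had 5 at the right and 6 at the left after heat shock and 2 and 5 at 20 °C, and V had 12 and 12, and 6 and 9. The Y57G11A.4 array of 8 summits and the srt-50 row of 6 lay at the right end of chromosome IV. Counted by clusters, chromosome IV had 9 at the right and 1 at the left at both temperatures. The other chromosomes together had 20 and 13 clusters after heat shock, and 12 and 9 at 20 °C. On chromosome IV 35 of 46 clustered summits after heat shock and 32 of 40 at 20 °C were in the rightmost 30%, against 21 of 41 and 24 of 52 isolated summits. This arm carries many piRNA genes, which encode small RNAs of the germline. A piRNA gene lay within 1000 bp of 16 of the 46 clustered and 15 of the 41 isolated summits of chromosome IV after heat shock, and of 13 of the 40 and 17 of the 52 at 20 °C. These places were not tested, since summits of a cluster share them.

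**Figure D5:**
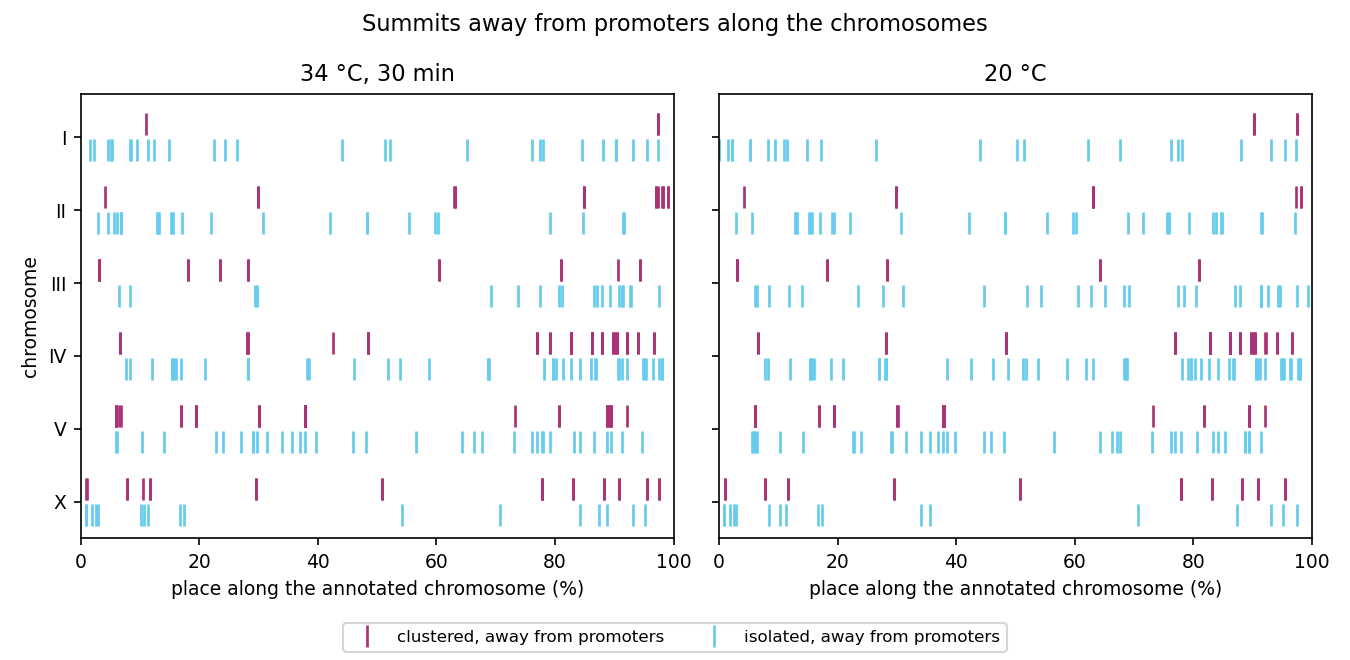
Place of each clustered (upper mark of a row) and isolated summit (lower mark) along its chromosome, in percent of the annotated length (horizontal axis), after heat shock (left) and at 20 °C (right); each row is a chromosome. Clustered marks crowd at the right end of chromosome IV, where the rightmost 30% held 35 of 46 after heat shock and 32 of 40 at 20 °C, and are sparse on chromosome I.

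The classical targets of HSF-1 were counted near each kind of summit. Of 32 names of chaperones, co-chaperones, ubiquitin genes and HSF-1 regulators, 30 were annotated, and 0 had a 5′ end within 10000 bp of a clustered summit at either temperature. Of all 19973 protein-coding genes, 200 (1%) after heat shock and 129 (0.646%) at 20 °C did, so a count of 0 among 30 genes is near the background and says nothing particular about them. An isolated summit lay within that distance of 0 of them after heat shock and of 3 at 20 °C, and a promoter summit of 21 and 22. Those near a promoter summit included hsp-70, the inducible HSP70 gene, with a promoter summit 35 bp from its 5′ end after heat shock and 95 bp at 20 °C, and the small heat shock protein gene hsp-16.2, with 159 and 167 bp. Of all protein-coding genes, 2.51% after heat shock and 3.1% at 20 °C lay within that distance of an isolated summit, and 3.07% and 4.43% of a promoter summit.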

How the data were processed

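HSF-1 ChIP-seq summits of young adult C. elegans were taken from 2 lists of summits common to the ethanol controls and from 6 sheets of summits by depletion class. The authors deposited a peak score for each summit, and regions named bdgdiff with a negative log p-value whose base is not stated, per the file headers; both were treated as scores and used within a temperature. The submitters' processing notes name Bowtie2 and MACS2, with no version. Peak names carry the strain JTL611. The sources used here do not give build, filters or pooling of replicates. Exact repeats of sheet rows were dropped. All 40 libraries were mapped to groups; RNA polymerase II and input libraries were not analysed here.

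Summits were placed by the Ensembl release 115 annotation of WBcel235 with Python 3.11.15, pandas 2.3.3 and numpy 2.4.6. Shares were compared with two-sided Fisher's exact tests (SciPy 1.17.1), adjusted by Benjamini-Hochberg over 12 tests (4 measures, the class as 3, at 2 temperatures) at 0.05, of which 6 passed. Intervals are exact binomial (95%), over summits, and cover counting error only. The code was tested on simulated summits. Genes were named for the 5 clusters with the most summits, the 5 highest scores, the 5 strongest mixed clusters of each temperature and all soma-class members; clusters present at 1 temperature, and the intron examples cku-70, C50A2.3, Y105C5A.15, unc-82 and snt-5, were named after their values were seen. Members and lists were chosen with earlier results of these data known. Alternatives changed the distances, window, unit, score range, chromosomes and positions.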

Additional observations from a re-analysis of the deposited data

How the results depend on the processing

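Of 212 values under alternatives, 171 neither changed sign nor crossed the threshold (1 of these was 0), and 7 changed sign. Differences below are clustered minus isolated, in percentage points. With 5′ ends over 500 bp away the germline difference after heat shock was -10.9, and over 2000 bp it was -13.7, with a counterpart difference of 12.8 after heat shock (all past the threshold) and an X difference of 7.33 at 20 °C (not past it). With a window of 1000 bp the shared (14.8) and X (5.63) differences at 20 °C missed the threshold and 96 summits were clustered after heat shock. With 5000 bp the shared (10.5), soma (-5.13) and X (5) differences at 20 °C missed it. With neighbours away from promoters only, the germline (-11.3), counterpart (11.8) and intron (-15.4) differences after heat shock passed it.

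Among summits at or above the median score, the differences after heat shock turned to -1.56 (shared), 1.56 (germline) and -1.90 (counterpart), and none was called. The soma differences were 0 after heat shock and -0.784 at 20 °C, and the shared, counterpart and X differences at 20 °C 0.784, 0.588 and 5.49. There were 94 members after heat shock, with median scores of 10200 and, at 20 °C, 2464. Below the median, an alternative chosen after seeing the data, the soma difference after heat shock (-13.2) and the shared one at 20 °C (5.91) missed the threshold, while at 20 °C the soma (-20.4), counterpart (41.5) and X (19.1) differences passed it.

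With the strongest summit per cluster, the germline (-15.3) and counterpart (14.0) differences after heat shock and the germline one at 20 °C (-22.5) passed. That summit is picked by score and the isolated ones are not, so these differences mix clustering with score. The soma differences (-6.72 and -8.50) missed, as they did with the leftmost (added later). Past the threshold came the counterpart difference after heat shock within 50 bp (12.8), and the germline one with listed summits only (-11.6) or summits moved 100 bp left (-11.7, added later). Without the srsx-7 array (added later) the shared difference at 20 °C was 13.4, with an adjusted p of 0.0586 (Fisher's exact test).

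The germline difference at 20 °C, not called, was -2.54 and changed sign below the median (18.4), with windows of 1000 bp (0.011) and 5000 bp (1.22) and without the srsx-7 array (0.769).

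No paired analysis was possible because no list gives values of single libraries, and replicates could not be left out. The search for heat shock elements was not run, as no genome sequence was used here. Depth is unknown.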
